A study of Mus musculus with 24 samples.

Results

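The genes described here are 10 markers of alternative activation and scavenger receptors of macrophages: *Mrc1*, *Chil3*, *Retnla*, *Stab1*, *Clec10a*, *Mgl2*, *Msr1*, *Cd36*, *Clec7a* and *Cd163*. They were chosen by name, as the rows with these symbols, and all 10 were present among the 18063 genes listed for the M1 libraries and the 17786 listed for the M2 libraries. The data were RNA-seq of bone marrow-derived macrophages (BMDMs), which are macrophages grown from marrow progenitors, here with L929-conditioned medium. The 24 libraries formed 8 groups of 3. M1 BMDMs had received 100 ng/ml LPS together with 50 ng/ml IFN-γ, and M2 BMDMs IL-4 and IL-13 at 10 ng/ml each, in both cases for 12 h. Under each stimulus WT and DRD5-/- BMDMs were each studied untreated and treated with dopamine (DA), and all came from C57BL/6 mice of 10 weeks. DRD5-/- cells lack the D5 dopamine receptor, a receptor that couples to the production of cAMP. No group was left without a polarizing stimulus, so every level below is a level in stimulated cells.

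IL-4 and IL-13 act through the IL-4 receptor and the transcription factor STAT6 and switch on a set of genes by which alternatively activated macrophages are recognised. Among them are lectins that bind sugars on microbes and glycoproteins (*Mrc1*, *Clec10a*, *Mgl2*, *Clec7a*) and secreted proteins (*Chil3*, also called Ym1, and *Retnla*, also called Fizz1). Scavenger receptors (*Msr1*, *Cd36*, *Stab1*, *Cd163*) take up modified lipoproteins, dying cells, matrix fragments and haemoglobin complexes, and not all of them depend on IL-4. LPS and IFN-γ drive the opposite, inflammatory state.

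Summed over genes, FPKM (fragments scaled by transcript length and mapped fragments) ran from 476187 to 503799 per library, and Pearson's r between replicates was at least 0.998 across genes, which are not independent replicates. *Drd5* had no row for the M1 libraries, and 10 of the 12 M2 libraries held 0 for it, the highest value being 0.06 FPKM, so its mRNA could not be used to check the genotype. The summed level of 6 markers of the M1 state lay between 4867 and 5375 FPKM in the M1 and between 46.4 and 65.1 FPKM in the M2 libraries. Of 6 markers of the M2 state, 4 (*Ccl24*, *Pdcd1lg2*, *Irf4* and *Socs2*) were higher in untreated M2 WT than in untreated M1 WT BMDMs without overlap, and *Arg1* and *Cish* were lower. All 8 macrophage markers were expressed under both stimuli, led by *Lyz2*. Markers of colon epithelium summed to at most 0.20 FPKM, although 1 label of the samples names the colon as their origin and another bone. Those of B cells, mast cells and basophils, and erythroid cells summed to at most 0.87, 0.45 and 3.12 FPKM. It is not stated whether the 3 libraries of a group came from separate mice or cultures, so the p-values measure only the spread between these libraries, which may be technical. In bulk RNA, fewer cells that express a gene and less of its RNA per cell cannot be told apart.

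Most of the 10 genes differed widely between the stimuli. Of the 10, 8 were at least 2-fold higher in untreated M2 WT than in untreated M1 WT BMDMs with no overlap between libraries, and *Msr1* was at least 2-fold lower. Over all 11148 genes compared, 43.1% differed in this way, 30.5% higher and 12.6% lower. The M1 and M2 libraries were deposited in files that list different genes, so these differences were described and not tested. In untreated WT BMDMs the M2 level was 25.8 times the M1 level for *Mrc1*, 29.4 times for *Chil3* and 23.9 times for *Clec7a*. It was 2.69 times for *Cd36*, 78.2 times for *Clec10a* and 150.2 times for *Mgl2*. The ratios of *Clec10a* and *Mgl2* rest on M1 means below 1 FPKM, at 0.86 and 0.45 FPKM. *Retnla* was listed at 0 in 10 of the 12 M1 libraries, the others being 0.17 and 0.09 FPKM in DA-treated DRD5-/- cells, and lay between 28.4 and 105 FPKM in the M2 libraries. *Cd163*, the receptor for haemoglobin-haptoglobin complexes, was below 1 FPKM in all 12 M1 libraries, at 0.06 to 0.23 FPKM, and reached only 1.94 to 3.19 FPKM in M2. *Mgl2* reached 1 FPKM in 1 of the 12 M1 libraries, *Clec10a* in 5 and *Chil3* in 6. *Msr1*, the class A scavenger receptor that binds acetylated lipoproteins, ran the other way, with 195 to 344 FPKM in M1 and 27.3 to 147 FPKM in M2.

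**Figure D1:**
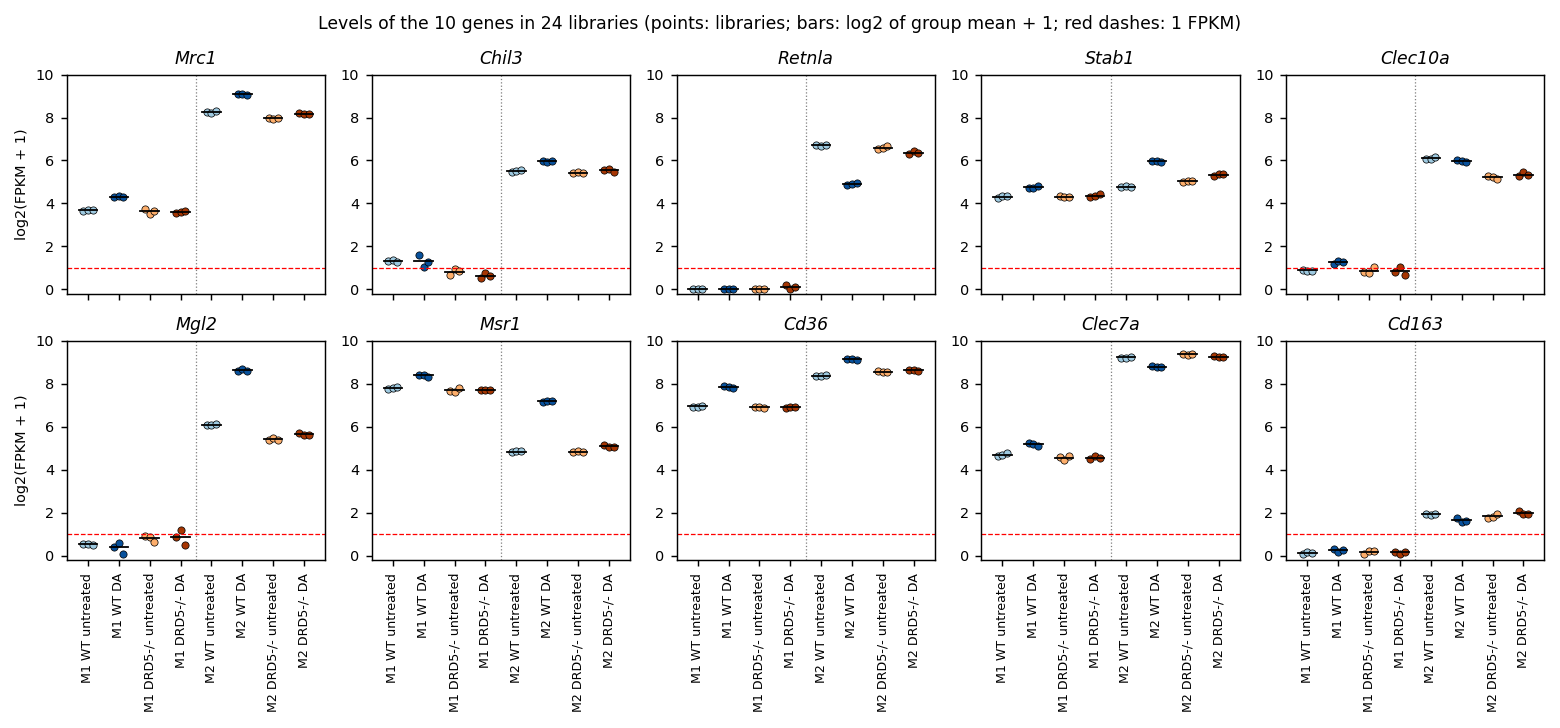
Level of each of the 10 genes in each library, as log2(FPKM + 1), with the 8 groups on the x axis; points are single libraries, black bars the group means, the dotted line divides M1 from M2 and the dashed line marks 1 FPKM. All genes but *Msr1* and *Stab1* sit higher in every M2 than in every M1 library, the untreated M2 WT libraries of *Stab1* overlap with the DA-treated M1 WT ones, and *Mgl2* and *Msr1* show the widest steps between untreated and DA-treated M2 WT BMDMs.

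With all 24 libraries scaled by median-of-ratios, the median log2 ratio of M2 to M1 over all genes in untreated WT fell by 0.45, and relative to that shift *Stab1* came to 1.02 times and *Cd36* to 1.97 times the M1 level. *Stab1*, a receptor for acetylated lipoproteins, had an unscaled ratio of M2 to M1 of 1.39 in untreated WT and 2.37 in DA-treated WT BMDMs. The ratio was 1.67 in untreated DRD5-/- and 2.02 in DA-treated DRD5-/- BMDMs. Without scaling, 9 of the 10 genes were at least 2-fold higher in M2 with DA and *Msr1* lower, both in WT cells (48.6% of all genes, 35.7% higher and 13% lower) and in DRD5-/- cells (42.4% of all genes, 30% higher and 12.4% lower). In untreated DRD5-/- cells 8 were higher and *Msr1* lower, beside 43.1% of all genes, 30.2% higher and 12.9% lower. With the scaling 7 genes were higher in both WT pairs, without *Stab1* and *Cd36*, and 8 in both DRD5-/- pairs, without *Stab1*, with *Msr1* lower in each. In DA-treated WT the scaled ratios were 1.64 for *Stab1* and 1.71 for *Cd36*, and *Stab1* came to 1.48 in DA-treated DRD5-/- cells. The scaling also moved the shares of all genes, to 19.3% higher and 18.3% lower in untreated WT and to 23.1% higher and 20.4% lower in DA-treated WT. For DRD5-/- cells the scaled shares were 19.8% higher and 18.4% lower untreated, and 19.3% higher and 18.2% lower with DA.

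DA changed 8 of the 10 genes in M2 WT BMDMs, raising 6 and lowering 2. Here and below, calls required both a limma adjusted p below 0.001 and a difference of 1.2-fold or more on the log2(FPKM + 1) scale, and ± gives the SE. Across all 10735 genes tested in M2, 46.3% were called in this comparison, 25.9% higher and 20.4% lower. The median log2 change was 0.60 over the 10 genes and 0.03 over all tested genes. *Mgl2* and *Msr1* rose more than 5-fold, *Stab1*, *Mrc1*, *Cd36* and *Chil3* rose by less, and *Retnla* and *Clec7a* fell. *Clec10a* and *Cd163* were not called.

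**Figure D2:**
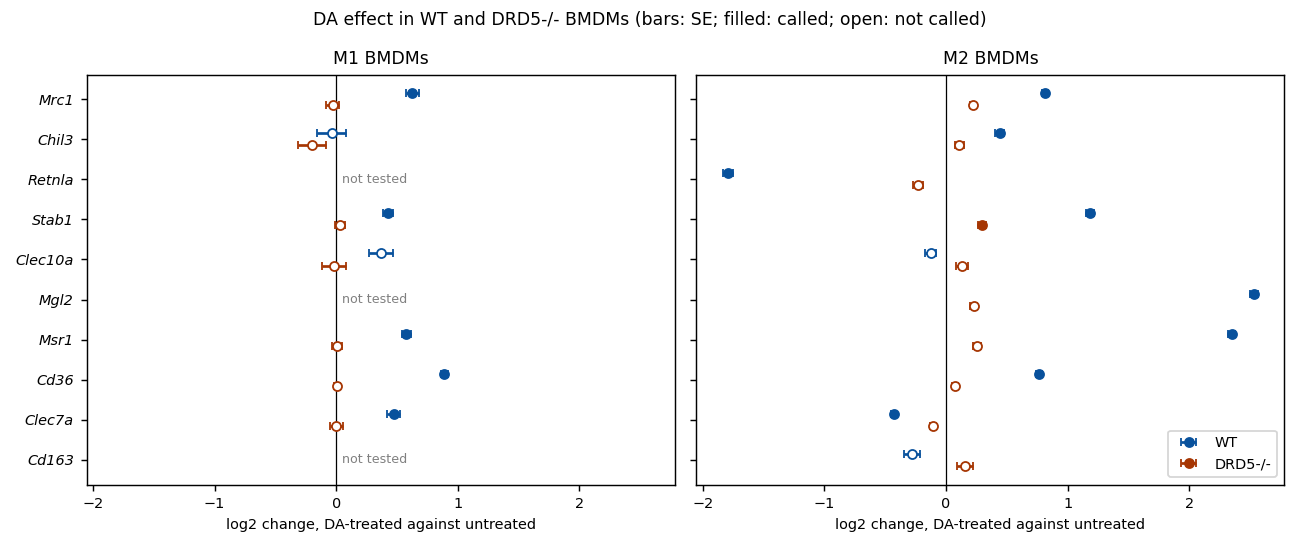
Log2 change of each gene with DA in M1 (left) and M2 (right) BMDMs, in WT and DRD5-/- cells; points are limma estimates on log2(FPKM + 1), bars their SE, filled points called and open points not called. In DRD5-/- cells the single filled point is *Stab1* in M2, at 0.30.

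Among the lectins, *Mrc1* encodes the mannose receptor CD206, an endocytic receptor widely used as a surface marker of M2 cells. In M2 WT BMDMs it was at 303, 299 and 315 FPKM untreated and at 541, 539.6 and 532 FPKM with DA. The 2 groups stood far apart, and *Mrc1* rose by 0.81 ± 0.02 (log2) with an adjusted p of 7.2e-13. In DRD5-/- cells the untreated libraries held 251, 245 and 248 FPKM and the DA-treated ones 295, 284 and 287 FPKM. These did not overlap either, but the difference of 0.22 ± 0.02 was below the 1.2-fold threshold (adjusted p = 2.2e-05). The DA effect was larger in WT than in DRD5-/- by 0.59 ± 0.03 (adjusted p = 1.7e-09). The untreated DRD5-/- cells started 0.30 ± 0.02 below untreated WT (adjusted p = 4.8e-07), a call that was lost with median-of-ratios scaling (-0.25). In unscaled FPKM all 3 DA-treated DRD5-/- libraries still lay below all 3 untreated WT libraries, but narrowly, at no more than 295 against no less than 299 FPKM.

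*Mgl2* and *Clec10a* encode a pair of closely related galactose-type lectins, MGL2 and MGL1, that bind terminal galactose and N-acetylgalactosamine. In GRCm38.p6 *Mgl2* lies on chromosome 11 at 70130125-70137542 and *Clec10a* at 70166623-70170836, with 29.1 kb between them. The coding sequences of their longest GENCODE M21 transcripts share an identical run of 183 bases, bases 550-732 of *Mgl2* and 502-684 of *Clec10a*, which is shown because reads from it cannot be assigned to 1 of the 2 genes.

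Mgl2 and Clec10a shared run: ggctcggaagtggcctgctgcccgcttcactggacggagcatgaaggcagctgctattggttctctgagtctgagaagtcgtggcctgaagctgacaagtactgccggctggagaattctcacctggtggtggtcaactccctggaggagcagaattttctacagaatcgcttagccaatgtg

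Of the windows of 100 bases along the longest *Mgl2* transcript, 5.92% were found in a *Clec10a* transcript, and 4.08% in the other direction. With windows of 50 bases these shares were 15.3% and 10.6%, so most of each transcript was distinct at either length. *Mgl2* was at 66.5, 67.7 and 68.5 FPKM in untreated M2 WT BMDMs and at 391, 405 and 389 FPKM with DA, a rise of 2.53 ± 0.03 (adjusted p = 3.9e-16) and the widest of the 10 genes. The untreated DRD5-/- libraries held 41.4, 43.4 and 40.2 FPKM and the DA-treated ones 50.9, 47.9 and 47.9 FPKM. The DA-treated DRD5-/- values were all below every untreated WT value, and their difference from untreated DRD5-/- was 0.23 ± 0.03 (adjusted p = 0.00018), under 1.2-fold. The effects of DA in the 2 genotypes differed by 2.30 ± 0.05 (adjusted p = 8.4e-14).

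*Clec10a* did not follow its neighbour. It was at 65.6, 66.7 and 69.5 FPKM in untreated and 63.1, 61.3 and 60.2 FPKM in DA-treated M2 WT BMDMs, a difference of -0.13 ± 0.05 that was not called (adjusted p = 0.024). In DRD5-/- cells it was at 37.4, 36.7 and 34.1 FPKM untreated and 37.5, 42.8 and 38.5 FPKM with DA. Its widest step was between the genotypes, as untreated DRD5-/- cells were lower than untreated WT by 0.88 ± 0.05 (adjusted p = 1.2e-08). *Mgl2* was lower there too, by 0.69 ± 0.03 (adjusted p = 4.1e-09). The ratio of *Mgl2* to *Clec10a* FPKM was 1.005 ± 0.017 (SD, n = 3) in untreated WT, 6.43 ± 0.21 in DA-treated WT, 1.16 ± 0.04 in untreated DRD5-/- and 1.24 ± 0.12 in DA-treated DRD5-/- M2 BMDMs. Fibroblast and stroma markers moved with the genotype as well, since all 5 were expressed in M2 and their sum was 105 to 107 FPKM in untreated WT, 77.8 to 79.1 in DA-treated WT, 63.7 to 65.1 in untreated DRD5-/- and 70.5 to 71.8 FPKM in DA-treated DRD5-/- cells, with *Dcn* the highest. Their part in the *Clec10a* and *Mgl2* differences was not tested.

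**Figure D3:**
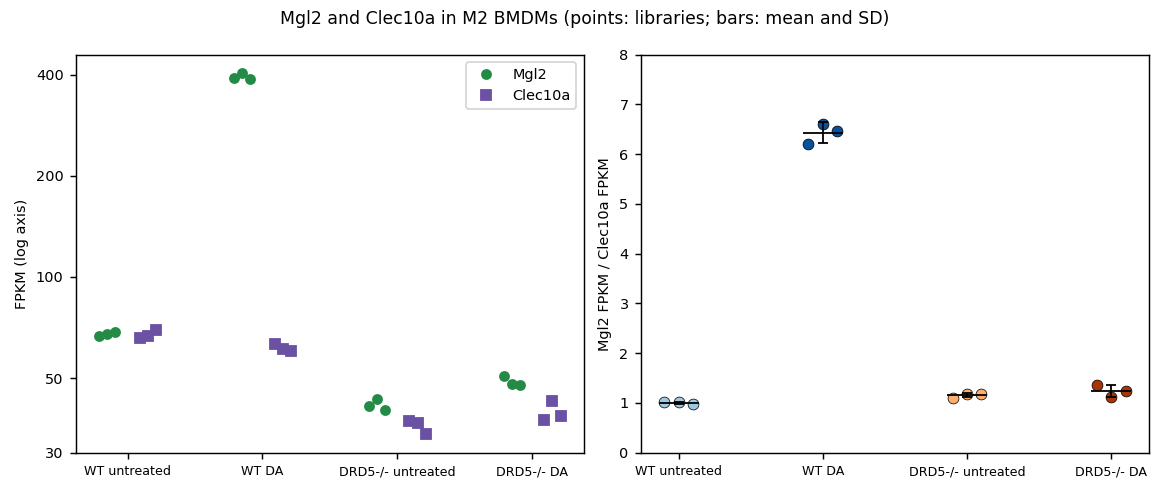
*Mgl2* and *Clec10a* in M2 BMDMs: FPKM of each library on a log axis (left), and the ratio of the 2 in each library with mean and SD (right). The ratio is near 1 in 3 groups and 6.43 in DA-treated WT cells.

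*Clec7a* encodes Dectin-1, the receptor for fungal β-glucan, and was the most abundant of the 10 genes in untreated M2 cells on the FPKM scale. It fell with DA from 595, 588 and 616 FPKM to 447, 442 and 444 FPKM in M2 WT BMDMs (-0.43 ± 0.02, adjusted p = 4.7e-10). DRD5-/- cells held 669, 652 and 659 FPKM untreated and 625, 615 and 601 FPKM with DA. That difference of -0.11 ± 0.02 was under the fold threshold (adjusted p = 0.0035), and the fall was larger in WT by -0.33 ± 0.03 (adjusted p = 6.6e-07).

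Of the secreted proteins, *Retnla*, a resistin-like molecule, was the gene that fell most. Untreated M2 WT libraries held 105, 103 and 104 FPKM and DA-treated ones 28.4, 29.3 and 30.3 FPKM. The fall was -1.79 ± 0.04 (adjusted p = 1.0e-13), to 0.282 times the untreated mean. In DRD5-/- cells it was at 91.8, 93.9 and 99.98 FPKM untreated and at 76.9, 86.8 and 79.7 FPKM with DA, without overlap, and the difference of -0.23 ± 0.04 was not called (adjusted p = 0.0012). The DA effects differed by -1.56 ± 0.06 (adjusted p = 3.5e-11).

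*Chil3* encodes Ym1, a chitinase-like lectin without chitinase activity. It rose from 43.4, 44.5 and 46.4 FPKM to 61.7, 60.3 and 61.5 FPKM in M2 WT BMDMs (0.44 ± 0.04, adjusted p = 5.5e-08). The 6 M2 DRD5-/- libraries lay between 41.3 and 47.6 FPKM with overlap of the untreated and DA-treated ones. Its DA effect was larger in WT by 0.33 ± 0.05 (adjusted p = 5.3e-05). The close relative *Chil4*, also called Ym2, lies beside it on chromosome 3 and shares 136 coding bases in a row, bases 987-1122 in both.

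Chil3 and Chil4 shared run: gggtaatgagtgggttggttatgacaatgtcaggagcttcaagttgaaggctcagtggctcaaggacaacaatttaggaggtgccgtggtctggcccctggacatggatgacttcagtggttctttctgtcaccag

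*Chil4* moved the other way in M2 WT BMDMs, falling from 5.93, 5.28 and 7.14 FPKM to 0.38, 0.42 and 0.62 FPKM (-2.27 ± 0.11, adjusted p = 2.3e-10). It was at 1.86 to 2.90 FPKM in the 6 DRD5-/- libraries. How the counting treated reads that match both genes was not given in the sources used here.

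The 250 bases upstream of the transcript start in RefSeq (GRCm38.p6) are given for *Retnla* and *Clec7a*, which fell, and for *Mrc1*, which rose. Capitals mark the spaced palindrome that STAT6 prefers, TTC and GAA with any 4 bases between them, which reads the same on both strands. *Retnla* is on chromosome 16, plus strand (48842359-48842608), *Clec7a* on chromosome 6, minus strand (129472780-129473029), and *Mrc1* on chromosome 2, plus strand (14229164-14229413).

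Retnla: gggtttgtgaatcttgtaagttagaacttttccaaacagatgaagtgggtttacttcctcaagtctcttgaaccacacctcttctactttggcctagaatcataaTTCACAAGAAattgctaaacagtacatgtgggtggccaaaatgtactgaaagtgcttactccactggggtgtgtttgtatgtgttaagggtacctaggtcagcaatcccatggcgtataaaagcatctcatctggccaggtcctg
Clec7a: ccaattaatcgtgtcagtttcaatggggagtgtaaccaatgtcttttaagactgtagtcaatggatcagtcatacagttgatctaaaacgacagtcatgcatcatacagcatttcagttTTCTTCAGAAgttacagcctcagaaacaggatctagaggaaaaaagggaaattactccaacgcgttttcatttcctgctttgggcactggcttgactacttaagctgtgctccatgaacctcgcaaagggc
Mrc1: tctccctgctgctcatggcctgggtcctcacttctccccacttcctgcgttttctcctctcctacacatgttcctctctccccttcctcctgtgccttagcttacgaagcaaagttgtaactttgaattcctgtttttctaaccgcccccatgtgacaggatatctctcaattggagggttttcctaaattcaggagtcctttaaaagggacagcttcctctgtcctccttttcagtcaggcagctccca

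The match began 145 bases before the start in *Retnla* and 131 bases before it in *Clec7a*. A window of 250 bases before and 50 after the start was listed for 8 of the 10 genes and held the motif in 3 (*Retnla*, *Clec7a* and, at base 21 after a start inside the gene, *Cd36*), against 6.95% of all 32851 promoters. These 3 genes did not move alike with DA in M2 WT cells, as *Cd36* rose. The cAMP response element TGACGTCA, the same on both strands, was in none of the 8 windows and in 1.79% of all promoters. A match is a description of the letters and does not show binding.

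Of the scavenger receptors, *Msr1* rose most in M2 WT BMDMs. It was at 27.3, 27.9 and 28.0 FPKM untreated and at 143, 146 and 147 FPKM with DA (2.35 ± 0.03, adjusted p = 4.6e-16). Untreated DRD5-/- cells overlapped with untreated WT cells, at 27.8, 28.3 and 27.4 FPKM, and DA-treated ones held 35.1, 32.4 and 32.6 FPKM with DA, a difference of 0.25 ± 0.03 that fell just short of 1.2-fold (adjusted p = 5.8e-05). It was called there without DA-treated DRD5-/- replicate 2 (0.27) or 3 (0.27) or untreated DRD5-/- replicate 2 (0.26). The DA effect was larger in WT by 2.09 ± 0.04 (adjusted p = 1.0e-13).

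*Stab1* rose in both genotypes. In M2 WT BMDMs it went from 26.4, 26.8 and 26.1 FPKM to 62.2, 61.3 and 60.5 FPKM (1.18 ± 0.03, adjusted p = 3.1e-13). In DRD5-/- cells it went from 30.7, 31.8 and 32.4 FPKM to 37.4, 39.9 and 40.0 FPKM (0.30 ± 0.03, adjusted p = 2.1e-05), the only call among the 10 genes in that comparison. The rise was larger in WT by 0.89 ± 0.04 (adjusted p = 5.7e-10).

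*Cd36*, a receptor for long-chain fatty acids and oxidized lipoproteins, was at 323, 329.96 and 337 FPKM in untreated and 566, 560.5 and 555 FPKM in DA-treated M2 WT BMDMs (0.76 ± 0.02, adjusted p = 8.1e-13). Its DRD5-/- libraries held 381, 373 and 375 FPKM untreated and 403, 399 and 388 FPKM with DA, a difference of 0.08 ± 0.02 (adjusted p = 0.019). The DA effect was larger in WT by 0.69 ± 0.03 (adjusted p = 2.1e-10). *Cd163* was scarce, with 2.85, 2.71 and 2.79 FPKM in untreated and 2.38, 1.94 and 2.06 FPKM in DA-treated M2 WT cells (-0.28 ± 0.07, adjusted p = 0.0019, not called). In DRD5-/- cells it was at 2.39, 2.47 and 2.83 FPKM untreated and 3.19, 2.89 and 2.84 FPKM with DA. Its DA effects differed by -0.44 ± 0.09, which was just called (adjusted p = 0.000996). The call was lost in 14 of 17 alternatives, with adjusted p between 0.00044 and 0.0034, 10 of them the omission of a library, any but DA-treated WT replicate 1 and untreated DRD5-/- replicate 3.

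Together, 9 of the 10 genes were called for the difference between the DA effects in WT and DRD5-/- M2 BMDMs, 6 in the upward and 3 in the downward direction, where 43.2% of all tested genes were called, 22.8% and 20.4% in these directions. *Clec10a* was the exception (-0.26 ± 0.07, adjusted p = 0.0032). In DRD5-/- M2 cells 1 of 10 genes was called for DA, against 4.02% of all tested genes (3.37% higher), of whose calls 83.8% were higher, or 69.8% with median-of-ratios scaling. For 8 of the 10 genes the log2 change in DRD5-/- cells had the sign of that in WT, and for these 8 it was 8.95% to 27.0% of the WT change. In this comparison 9 of the 10 genes had libraries that did not overlap and 9 an adjusted p under 0.05, beside 45.3% of all tested genes without overlap and 32.2% with such a p. Leaving out a single library gave 1 to 3 calls: 3 (*Retnla* and *Msr1* added) without DA-treated DRD5-/- replicate 2, and 2 without DA-treated DRD5-/- replicate 3 or untreated DRD5-/- replicate 2.

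Other markers moved with DA in M2 WT cells. The summed macrophage markers were 10779 to 10951 FPKM in untreated WT and 8472 to 8510 FPKM in DA-treated WT cells, against 10938 to 11389 FPKM in the 6 DRD5-/- libraries. *Lyz2* alone had a mean of 6396 FPKM over the M2 libraries, so this sum need not speak for each marker. Osteoclast markers (3 of 5 expressed, led by *Ctsk*) were 39.0 to 40.9 and 17.6 to 18.6 FPKM in untreated and DA-treated WT cells, and 49.5 to 52.4 and 42.8 to 46.1 FPKM in DRD5-/- cells. Eosinophil markers (2 of 5 expressed, led by *Ccr3*) were 5.81 to 6.38 and 11.5 to 12.7 FPKM in these groups, and 6.95 to 7.59 and 10.1 to 10.9 FPKM in untreated and DA-treated DRD5-/- cells. T and NK cell markers, of which only *Cd4* was expressed among 4 listed, were 3.92 to 4.41 FPKM in untreated WT, at most 2.68 FPKM in DA-treated WT and 5.28 to 6.66 FPKM in DRD5-/- cells, and neutrophil and dendritic cell markers were at most 1.51 and 0.77 FPKM in any M2 library. Their part in the changes of the 10 genes was not tested.

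Without DA, 3 of the 10 genes were called lower in DRD5-/- than in WT M2 BMDMs (*Clec10a*, *Mgl2* and *Mrc1*) and none higher. Over all tested genes 5.51% were called, 4.15% lower. Of those calls 24.8% were higher, or 40.1% with median-of-ratios scaling. *Stab1* was 0.25 ± 0.03 higher (adjusted p = 5.2e-05), *Cd36* 0.19 ± 0.02 higher and *Clec7a* 0.14 ± 0.02 higher in untreated DRD5-/- cells, each under 1.2-fold. *Stab1* passed the threshold without untreated DRD5-/- replicate 1 (0.27) and with median-of-ratios scaling (0.30), under which *Mrc1* lost its call (-0.25). *Msr1* differed by 0.00 ± 0.03 (adjusted p = 0.94). With DA in both genotypes, all 10 genes were called between M2 WT and DRD5-/- BMDMs, 7 higher in WT and *Retnla*, *Clec7a* and *Cd163* lower, in a comparison that called 49.7% of all tested genes (29.2% higher and 20.4% lower) and that shares its libraries with the comparisons above. *Mgl2* was 2.99 ± 0.03 higher in DA-treated WT (adjusted p = 7.2e-17), with 395 ± 8.82 FPKM against 48.9 ± 1.75 FPKM (mean ± SD, n = 3). *Cd163* was lower by 0.35 ± 0.07 (adjusted p = 0.00029) and lost its call in 5 of 18 alternatives, among them without DA-treated DRD5-/- replicate 1 (-0.31) and DA-treated WT replicates 2 (-0.30) and 3 (-0.33).

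In M1 WT BMDMs, DA raised 5 of the 7 genes that could be tested and lowered none. Those genes were *Cd36*, *Mrc1*, *Msr1*, *Clec7a* and *Stab1*, whereas 14.3% of the 10040 genes tested in M1 were called, 4.73% higher and 9.6% lower. Median-of-ratios scaling moved the higher share of these calls from 33% to 55.6%. *Retnla*, *Mgl2* and *Cd163* did not reach 1 FPKM in 3 of the 12 M1 libraries and were not tested. The median log2 change was 0.47 over the 7 genes and -0.07 over all tested genes.

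*Cd36* changed most, from 122, 122 and 124 FPKM to 235, 227 and 222 FPKM (0.89 ± 0.03, adjusted p = 1.2e-11). *Mrc1* was at 11.6, 11.9 and 12.0 FPKM untreated and 18.6, 19.3 and 18.6 FPKM with DA (0.63 ± 0.05, adjusted p = 2.2e-07). *Msr1* went from 218, 222 and 231 FPKM to 344, 338 and 321 FPKM (0.58 ± 0.04, adjusted p = 2.7e-08). No library of these 3 genes overlapped between untreated and DA-treated WT cells, as for 56.5% of all tested genes. *Clec7a*, which fell with DA in M2, rose here from 24.3, 24.7 and 26.4 FPKM to 36.7, 35.5 and 33.8 FPKM (0.47 ± 0.05, adjusted p = 4.8e-06). *Stab1* rose from 18.2, 19.6 and 19.2 FPKM to 25.6, 25.3 and 26.8 FPKM (0.43 ± 0.04, adjusted p = 1.3e-06). *Clec10a* stood near the limit of 1 FPKM, with 0.90, 0.84 and 0.84 FPKM untreated and 1.27, 1.53 and 1.42 FPKM with DA, and was not called (0.37 ± 0.10, adjusted p = 0.0065). It passed the filter on low values only with these DA-treated WT libraries, so its result is given as a value.

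Markers of other cell types moved with DA in M1 WT cells as well. Neutrophil markers were 44.7 to 56.6 FPKM untreated and 63.7 to 83.1 FPKM with DA, and eosinophil markers (1 of 5 expressed, *Ccr3*) 2.19 to 2.39 and 3.95 to 4.92 FPKM, against 1.90 to 2.67 FPKM in the 6 DRD5-/- libraries. The macrophage markers, led by *Lyz2* (mean 4938 FPKM over the M1 libraries), summed to 7271 to 7386 FPKM untreated and 7946 to 8017 FPKM with DA. Their sum was 7048 to 7471 FPKM in DRD5-/- cells. Dendritic cell markers (2 of 6 expressed, led by *Ccr7*) were 38.5 to 40.9 and 21.7 to 22.7 FPKM, against 40.2 to 43.4 FPKM in DRD5-/- cells. Fibroblast, osteoclast, and T and NK cell markers lay between 3.33 and 4.28, 25.4 and 28.8, and 0.73 and 1.37 FPKM over all 12 M1 libraries. The part of these markers in the changes of the 5 genes was not tested.

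In M1 DRD5-/- BMDMs limma called none of the 7 genes and 0% of all tested genes for DA, of which 569 had an unadjusted p under 0.05, none of them among the 7. The untreated and DA-treated libraries of every one of the 10 genes overlapped, and 8.73% of all tested genes did not overlap. The values were 117 to 122 FPKM untreated against 116 to 121 FPKM with DA for *Cd36*, and 10.4 to 12.2 against 10.7 to 11.7 FPKM for *Mrc1*. *Msr1* was at 195 to 219.6 FPKM untreated and 206 to 208 FPKM with DA. Their log2 differences were 0.01 ± 0.03, -0.03 ± 0.05 and 0.01 ± 0.04. The difference between the DA effects of the 2 genotypes was called for *Cd36* (0.88 ± 0.04), *Mrc1* (0.65 ± 0.07), *Msr1* (0.57 ± 0.05), *Clec7a* (0.47 ± 0.07) and *Stab1* (0.40 ± 0.06), with adjusted p between 1.7e-09 and 0.00028. These were 5 of the 7 genes, all positive, against 8.38% of all tested genes, 3.2% positive and 5.18% negative, and 63.9% of all those calls were positive with median-of-ratios scaling in place of 38.2%. The call of *Clec7a* was lost in 4 of 17 alternatives, with adjusted p between 5.0e-05 and 0.002, among them without DA-treated WT replicate 1 (0.45) and untreated WT replicates 1 (0.45) and 2 (0.46).

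Without DA, none of the 7 genes was called between the genotypes in M1 BMDMs, where limma called 0.936% of all tested genes. 3 of the 7 had an unadjusted p under 0.05, beside 2557 of all tested genes (25.5%), namely *Chil3* (-0.51 ± 0.12, adjusted p = 0.013), *Msr1* (-0.12 ± 0.04) and *Clec7a* (-0.15 ± 0.05). With DA in both genotypes 6 of the 7 were higher in WT, again from libraries that the other comparisons use. The 6 include *Chil3*, which passed the filter on low values through the WT groups alone. Over all tested genes 18.5% were called, 5.95% higher and 12.6% lower. The higher share of all calls there was 32.1%, or 52.5% with median-of-ratios scaling. *Clec10a* was the gene not called (0.41 ± 0.10, adjusted p = 0.0027) and was called without DA-treated DRD5-/- replicate 2 (0.52). It passed the filter on low values only with the DA-treated WT libraries, so both results are given as values.

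The sixth of those genes was *Chil3*, which was not called for DA in either genotype in M1 cells (-0.04 ± 0.12 in WT, adjusted p = 0.81). It was at 1.53, 1.59 and 1.45 FPKM in untreated WT, 1.99, 1.05 and 1.42 FPKM in DA-treated WT, 0.59, 0.91 and 0.84 FPKM in untreated DRD5-/- and 0.45, 0.69 and 0.52 FPKM in DA-treated DRD5-/- cells. All 6 M1 WT libraries were above all 6 DRD5-/- libraries, and they were the only ones at 1 FPKM or more. The gene thus passed the filter on low values through the WT groups alone, and its call is given as a value. The difference with DA was 0.66 ± 0.12 (adjusted p = 0.00025) and was lost in 6 of 18 alternatives, with adjusted p between 4.6e-05 and 0.0017, among them without DA-treated WT replicate 1 (0.52) or 3 (0.68) and DA-treated DRD5-/- replicate 1 (0.62) or 3 (0.65). With a pseudocount of 0.1 the difference was 1.25, and that between the untreated genotypes -0.90. Neutrophil markers differed between the same libraries. The 8 of that list, 5 of them expressed, summed to 44.7 to 56.6 FPKM in untreated WT, 63.7 to 83.1 FPKM in DA-treated WT and 14.7 to 20.1 FPKM in the 6 DRD5-/- libraries. *Ngp*, a granule protein of neutrophils, was at 6.05 to 12.4 FPKM in WT and at most 0.17 FPKM in DRD5-/- cells, *S100a9* at 9.65 to 21.0 and 0.40 to 0.81 FPKM. The highest marker of the list was *S100a8*, with a mean of 24.9 FPKM over the 12 M1 libraries. The list as a whole kept 14.7 to 20.1 FPKM in DRD5-/- cells, so *Ngp* and *S100a9* do not stand for all of it. *Elane* was at 0 in all 12 and *Mpo* and *Ly6g* were at most 0.08 and 0.33 FPKM. The part of these markers in the *Chil3* difference was not tested.

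The effect of DA in WT cells was then compared between the stimuli by fitting all 24 libraries together. Each DA effect was taken within its own stimulus. A shift between the M1 and M2 libraries thus cancels only where untreated and DA-treated libraries share it. Of the 11148 genes tested, 45.9% were called, 28.2% with a positive and 17.6% with a negative difference. Positive differences made up 61.6% of these calls, or 53.3% with median-of-ratios scaling. Of the 7 genes that were also tested within M1, 4 were called. They include *Clec10a*, which reached 1 FPKM in 5 of the 12 M1 libraries. It passed the filter within M1 only with the DA-treated WT libraries (1.27, 1.53 and 1.42 FPKM). DA raised *Msr1* (1.77 ± 0.05, adjusted p = 4.2e-18) and *Stab1* (0.76 ± 0.05, adjusted p = 1.4e-11) more in M2 than in M1. *Clec7a* moved in opposite directions, with a difference of -0.91 ± 0.06 (adjusted p = 7.0e-12). *Retnla*, *Mgl2* and *Cd163* passed the filter on low values only through M2, and their calls are given as values. For *Retnla* the difference of -1.79 ± 0.07 is the M2 effect itself, since every M1 WT library was listed at 0. *Mgl2* differed by 2.70 ± 0.16 (adjusted p = 1.9e-12), with M1 WT means of 0.45 FPKM untreated and 0.307 FPKM with DA. *Clec10a* (-0.50 ± 0.11) and *Cd163* (-0.41 ± 0.09) were called too, from M1 values near or below 1 FPKM, and lost their calls in 4 and 6 of 30 alternatives, with adjusted p up to 0.0014 and 0.0016. Both lost them with a pseudocount of 0.1, which moved the values to -0.78 and -0.995. *Clec10a* lost it without M1 DA-treated WT replicate 2 (-0.46), M2 DA-treated WT replicate 3 (-0.48) or M2 untreated WT replicate 3 (-0.47), and *Cd163* without M1 DA-treated WT replicate 1 (-0.38) or 3 (-0.39), M1 untreated WT replicate 1 (-0.39) or M2 DA-treated WT replicate 2 (-0.36) or 3 (-0.39). *Cd36* and *Mrc1* did not pass, with differences of -0.13 ± 0.03 (adjusted p = 0.0028) and 0.18 ± 0.06 (adjusted p = 0.0055). The ratio of DA-treated to untreated means was 1.86 in M1 and 1.70 in M2 for *Cd36*, and 1.59 in M1 and 1.76 in M2 for *Mrc1*. *Chil3* was not called either (0.48 ± 0.13, adjusted p = 0.002) but was without M1 DA-treated WT replicate 1 (0.62).

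The order of the 8 group means differed between the genes. DA-treated M2 WT cells were highest for *Mrc1*, *Chil3*, *Stab1*, *Mgl2* and *Cd36*, untreated M2 WT cells for *Retnla* and *Clec10a*, untreated M2 DRD5-/- cells for *Clec7a*, DA-treated M2 DRD5-/- cells for *Cd163* and DA-treated M1 WT cells for *Msr1*. For *Cd36*, DA-treated WT cells led in each stimulus and were followed in M2 by DA-treated DRD5-/-, untreated DRD5-/- and untreated WT cells without overlap between neighbours. For *Chil3* the libraries of DA-treated DRD5-/-, untreated WT and untreated DRD5-/- M2 cells overlapped from each group to the next.

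Further lists held relatives of the 10 genes, and their counts stand beside the 46.3% of all genes called for DA in M2 WT cells and the 14.3% in M1 WT cells. Of 28 other genes known to be induced by IL-4, 23 were tested in M2, and DA raised 11 and lowered 7 of them in WT cells (median log2 change 0.24). *Arg1*, which splits arginine into ornithine and urea, rose from 28.9 to 592 FPKM (4.31 ± 0.04), and the adhesion gene *Cdh1* rose from 2.18 to 17.0 FPKM (2.50 ± 0.06). *Chil4* and the chemokine *Ccl22* (-2.25 ± 0.06, from 7.21 to 0.723 FPKM) fell most. In M1 WT cells 4 of 18 rose and 6 fell, led by *Arg1* (1.47 ± 0.03) and *Klf4* (0.75 ± 0.05) and by *Ch25h* (-1.16 ± 0.05) and *Ccl22* (-0.62 ± 0.04).

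Of 17 other scavenger receptors, 10 were tested under each stimulus. In M2 WT cells 2 rose with DA, *Lrp1* (0.36 ± 0.03) and *Scarb1* (0.34 ± 0.03), and 4 fell, led by *Cd14* (-1.41 ± 0.03, from 155 to 57.4 FPKM) and *Cxcl16* (-1.11 ± 0.04), with a median of -0.12. In M1 WT cells 1 rose, *Cd44* (0.37 ± 0.03), and 1 fell, *Cxcl16* (-0.28 ± 0.03). In M2 DRD5-/- cells, where 4.02% of all tested genes were called for DA, none of these 10 was, against 3 higher (*Jag1*, 0.63, *Arg1*, 0.49, and *Pdcd1lg2*, 0.37) and 1 lower (*Ccl22*, -0.54) of the 23 IL-4-induced genes. The genes of these small counts were named after their values were seen.

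Of 25 other C-type lectin receptors, DA raised 6 of 11 tested and lowered 0 in M1 WT cells, led by *Clec4n*, which encodes Dectin-2 (1.19 ± 0.05, from 79.7 to 183 FPKM), and *Clec4d* (0.55 ± 0.03). In M2 WT cells 3 of 12 rose and 7 fell (median -0.43). *Clec5a* (0.64 ± 0.04) and *Clec4d* (0.50 ± 0.03) rose most, and *Clec4a1* (-1.51 ± 0.03, from 91.7 to 31.6 FPKM) and *Clec4a3* (-1.36 ± 0.04) fell most. In M2 DRD5-/- cells 2 of the 12 were higher with DA (*Clec4d*, 0.62, and *Clec4e*, 0.55) and *Clec12a* was lower (-0.28). Over all tested genes 4.02% were called there, 3.37% higher and 0.652% lower. These genes, too, were named after their values were seen. *Clec7a* had the directions that most of this list had under each stimulus, which is a description of counts.

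**Figure D4:**
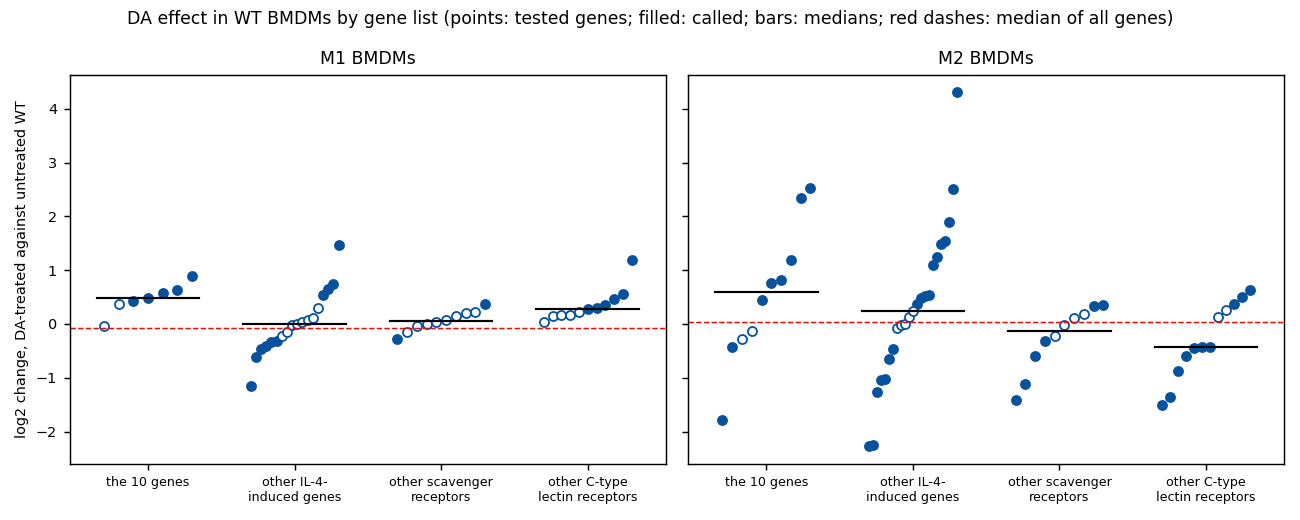
Log2 change with DA in WT M1 (left) and M2 (right) BMDMs for the 10 genes and the 3 further lists; each point is a tested gene, filled where called, black bars are list medians and the dashed line is the median of all tested genes. In M2 the medians are 0.60, 0.24, -0.12 and -0.43 from left to right.

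Close relatives of the 10 genes were described by their levels alone. *Stab2* was at most 0.02 FPKM in M1 and 0.08 to 0.88 FPKM in M2, and *Chil1* and *Cd163l1* were at most 0.29 and 0.01 FPKM in any library. *Mrc2* stayed below 0.12 FPKM in M1 and lay between 1.73 and 3.09 FPKM in M2. *Retnlg*, a neutrophil-expressed relative of *Retnla* that was listed for M1 only, was at 0.88 to 1.96 FPKM in the 6 WT libraries and at 0 in all 6 DRD5-/- libraries. *Cd5l*, of the same cysteine-rich receptor family as *Cd163*, was at 132 ± 4.61 FPKM in untreated and 53.9 ± 2.13 FPKM in DA-treated M2 WT cells (mean ± SD, n = 3). *Scarb1* and *Scarb2* were at 27.4 to 51.7 and 15.7 to 32.4 FPKM over all libraries.

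The genes whose log2(FPKM + 1) followed that of *Mrc1* most closely over the 12 M2 libraries were *Thbs1* (Pearson's r = 0.998), *Il21r* (0.998) and *Serpinb2* (0.998), out of 10734 genes compared. For *Chil3* they were *Ctla2b* (0.994), *Otud6b* (0.989) and *Gstcd* (0.988), and for *Retnla* they were *Cd52* (0.998), *Acaa1a* (0.997) and *Ephx1* (0.997). In the 12 M1 libraries *B4galt6*, *Ms4a14* and *Lrp12* came closest to *Mrc1* (0.991, 0.990 and 0.989) and *Ccdc127*, *Scgb1a1* and *Ngp* to *Chil3* (0.945, 0.927 and 0.913). These 12 points share 4 groups of 3, so a value near 1 says that the group means ran in parallel.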

How the data were processed

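Libraries were sequenced by the authors on the BGISEQ-500 platform, and the FPKM they deposited came from filtered reads mapped with HISAT2 to GRCm38.p5. The submitters' processing notes also name Bowtie2 2.2.5 and GRCm38.p6. Read counts were not used here, so the depth per library is unknown, no counting interval can be given, and length and depth corrections stay in every value. Genes with at least 1 FPKM in at least 3 libraries entered a limma (3.58.1, in R 4.3.3) model of log2(FPKM + 1) with group means and an intensity trend over the 12 libraries of a stimulus or, for the comparison of stimuli, all 24. This pseudocount of 1 understates changes of low genes. Benjamini-Hochberg adjustment ran over all tested genes. The fit was tested on simulated data. The 10 genes, the lists and the thresholds were chosen with earlier results of these data known. Named genes of the further lists were the up to 2 largest called changes with DA in WT in each direction. For DA in M2 DRD5-/- cells every called gene of these lists was named. Genes of similar pattern were named for *Mrc1*, *Chil3* and *Retnla*, 3 each. Alternatives were median-of-ratios scaling, a pseudocount of 0.1, no filter, a replicate block, the compared groups alone, an adjusted p of 0.05, 4-fold for the levels, and leaving out each library. Python 3.11.15 with pandas 2.3.3, numpy 2.4.6 and matplotlib 3.10.9 was used for the rest.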

Additional observations from a re-analysis of the deposited data

Results flagged for a closer look

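The tests of the difference between DA effects singled out these results, all on the log2(FPKM + 1) scale. Between WT and DRD5-/- BMDMs (WT minus DRD5-/-) in M1 these were *Mrc1* (0.65), *Stab1* (0.40), *Msr1* (0.57), *Cd36* (0.88) and *Clec7a* (0.47). In M2 they were *Mrc1* (0.59), *Chil3* (0.33), *Retnla* (-1.56), *Stab1* (0.89), *Mgl2* (2.30), *Msr1* (2.09), *Cd36* (0.69), *Clec7a* (-0.33) and *Cd163* (-0.44). Between M2 and M1 WT BMDMs (M2 minus M1) they were *Retnla* (-1.79), *Stab1* (0.76), *Clec10a* (-0.50), *Mgl2* (2.70), *Msr1* (1.77), *Clec7a* (-0.91) and *Cd163* (-0.41), of which *Retnla*, *Mgl2* and *Cd163* passed the filter on low values through M2 alone. *Clec7a* is the gene for which the sign of the difference between genotypes was opposite in M1 and M2 among the genes called in both. Groups of 3 libraries were not searched for outlying samples.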

How the results depend on the processing

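No called value changed sign in any alternative. Of 1810 values recomputed for the 10 genes, 1755 kept their side of the threshold, 40 lost and 15 gained a call. An adjusted p of 0.05 gave 1 call in place of 0 between untreated M1 genotypes. It was that of *Chil3*, which passed the filter on low values through the WT groups alone. The calls for DA in M2 DRD5-/- BMDMs ranged from 1 to 3 when a library was left out, for which the cause was not tested. Over all genes, calls between untreated M1 genotypes moved from 94 to 43 without the filter and to 202 at an adjusted p of 0.05. The cause of the move without the filter was not tested. Calls moved to 36 without DRD5-/- replicate 2, and stood at 57 without DRD5-/- replicate 3 and 45 without WT replicate 3. At an adjusted p of 0.05 the M1 difference between DA effects went from 841 to 1836 genes, DA in M2 DRD5-/- from 432 to 719, and untreated M2 genotypes from 592 to 895. Levels at least 4-fold apart between untreated M2 and M1 WT held for 1971 in place of 4805 genes. Same-numbered libraries did not deviate together (the mean correlation of their residuals was -0.0208 in M1 libraries and -0.016 in M2 libraries), and numbers were not taken as pairs, and a replicate block changed 1 call of the 10 genes, that of *Cd163* for the M2 difference between genotypes (-0.44, adjusted p = 0.0015). Depth is unknown, so nothing can be said of how many reads lie behind values under 1 FPKM.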
